A study of Mus musculus with 7 samples.

Results

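Open chromatin of day 9 reprogramming cells was compared with that of embryonic stem cells (ESCs), peak by peak. The ATAC-seq assay cuts accessible DNA with Tn5 transposase, and a peak is a stretch where cuts pile up. A day 9 peak was called shared when it overlapped an ESC peak by at least 1 bp and day 9 only when it did not, and ESC peaks were divided the same way. Of 33007 day 9 peaks, 19639 were day 9 only and 13368 shared. Of 27074 ESC peaks, 13521 were ESC only and 13553 shared. Merging the peaks of both libraries gave 46059 regions, out of 104346 regions over all 7 libraries of the series.

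The day 9 cells were mouse embryonic fibroblasts (MEFs) that carry tetO-driven Pou5f1, Klf4, Sox2 and Myc (OKSM) inserted at Col1a1, with the reverse transactivator rtTA*M2 at Gt(ROSA)26Sor, on a mixed B6 and 129S4 background, and that were kept in doxycycline at 2 µg/mL for 9 days. The MEFs came from mid-gestation embryos, and their medium was changed to ESC medium when the earliest colonies appeared. The ESCs were the Bruce-4 line, grown with mLIF and untreated, although its label lists the MEF genotype. MEFs of the same genotype before induction (day 0) and on days 1, 2, 3 and 6 of doxycycline served as reference. Each group has 1 library of 50000 cells, so that no difference could be tested against replicates and every interval below is an exact 95% binomial interval that covers counting error only. Strain background, cell origin and doxycycline differ between the day 9 and ESC libraries and cannot be told apart. The plate at day 9 was sampled whole, and a smaller share of cells with an open site cannot be told apart from a weaker opening in each cell. Reads from the OKSM cassette and from the endogenous exons of its 4 genes cannot be told apart either.

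In reprogramming, OKSM expression turns fibroblasts into induced pluripotent stem cells over days to weeks. The somatic programme is maintained in large part by AP-1 (Fos and Jun proteins) together with TEAD and RUNX factors at distal enhancers, whereas the pluripotent state depends on enhancers where Oct4 and Sox2 bind side by side with Klf4, Esrrb, Nanog and related factors. A mesenchymal-to-epithelial transition, with loss of matrix genes and gain of Cdh1, occurs along the way. Late in the process, most cells on a plate have not completed the transition. Some classes of repeat element are kept closed in somatic cells and are transcribed in pluripotent cells.

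Sequences of 7 peaks are given as examples, chosen for their matches to the motif marked in each class. They do not show how frequent that motif is in its class. Each is the central 200 bp of a peak on the plus strand of mm10 (RefSeq GRCm38.p6 sequence), taken near a gene of the lists used below with a window outside annotated exons. Capitals mark the octamer ATGCAAAT, an Oct4 motif, in the ESC only peak, the AP-1 motif TGANTCA in the 3 day 9 only peaks and the KLF motif CCACNCCC in the 3 shared peaks, in either orientation. The ESC only peak lies at the promoter of Zfp42 (Rex1), a marker of naive pluripotency, and had a peak in no other library:
Zfp42, chr8:43307042-43307241: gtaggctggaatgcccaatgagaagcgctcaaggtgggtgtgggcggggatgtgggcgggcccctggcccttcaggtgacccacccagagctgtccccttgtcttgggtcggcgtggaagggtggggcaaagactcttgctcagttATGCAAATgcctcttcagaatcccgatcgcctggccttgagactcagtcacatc
The day 9 only peaks lie near Thy1, a fibroblast surface marker, Twist2, a mesenchymal transcription factor, and Runx2, and all 3 also had a peak in the 5 other MEF-derived libraries. The first holds 3 AP-1 matches and the others 2 each:
Thy1, chr9:44039854-44040053: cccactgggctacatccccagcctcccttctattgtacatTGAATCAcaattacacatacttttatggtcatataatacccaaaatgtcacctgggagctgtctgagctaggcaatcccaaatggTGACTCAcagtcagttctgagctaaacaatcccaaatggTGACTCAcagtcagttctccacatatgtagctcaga
Twist2, chr1:91816738-91816937: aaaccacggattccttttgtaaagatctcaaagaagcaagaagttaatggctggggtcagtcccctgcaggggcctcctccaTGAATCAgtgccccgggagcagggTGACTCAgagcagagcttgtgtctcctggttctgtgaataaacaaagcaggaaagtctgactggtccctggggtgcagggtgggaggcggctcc
Runx2, chr17:44767599-44767798: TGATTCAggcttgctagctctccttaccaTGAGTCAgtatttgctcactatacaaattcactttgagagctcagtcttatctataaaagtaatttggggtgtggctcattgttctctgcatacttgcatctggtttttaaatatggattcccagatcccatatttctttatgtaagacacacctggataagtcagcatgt
The shared peaks lie near Zscan10, Tfcp2l1 and Trim71, which are expressed in pluripotent cells. The Zscan10 peak was present in all 7 libraries, the Tfcp2l1 peak from day 3 on and the Trim71 peak from day 6 on:
Zscan10, chr17:23592614-23592813: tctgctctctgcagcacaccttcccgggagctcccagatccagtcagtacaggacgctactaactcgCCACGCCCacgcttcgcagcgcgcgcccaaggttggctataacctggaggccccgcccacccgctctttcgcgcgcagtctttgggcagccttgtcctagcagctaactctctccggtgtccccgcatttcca
Tfcp2l1, chr1:118648104-118648303: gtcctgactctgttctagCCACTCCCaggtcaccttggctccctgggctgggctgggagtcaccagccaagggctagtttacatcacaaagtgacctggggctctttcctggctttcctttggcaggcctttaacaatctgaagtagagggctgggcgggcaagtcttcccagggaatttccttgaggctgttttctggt
Trim71, chr9:114528161-114528360: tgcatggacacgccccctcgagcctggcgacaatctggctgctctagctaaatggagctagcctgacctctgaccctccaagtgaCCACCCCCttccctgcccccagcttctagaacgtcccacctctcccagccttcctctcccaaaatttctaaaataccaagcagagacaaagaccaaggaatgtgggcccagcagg

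The unshared peaks were narrow and the shared peaks were wide. The median width was 270 bp for day 9 only peaks (quartiles 205 and 453) and 585 bp for day 9 shared peaks (397 and 690). In ESCs the medians were 297 bp for ESC only peaks and 495 bp for shared peaks. As the caller's smallest peak was 200 bp, 21.3% of the day 9 only peaks and 17.3% of the ESC only peaks sat at that floor, against 4.61% and 6.60% of the shared peaks. The share of peaks without a partner fell with width on both sides. On day 9 it was 87.2% (86.2 to 88.1) of the 4801 peaks at 200 bp and 7.10% (4.69 to 10.2) of the 366 peaks of 1000 bp or more. In ESCs it was 72.3% at 200 bp, 16.7% (15.2 to 18.4) of the 2127 peaks in the bin that starts at 700 bp and 21.3% (15.9 to 27.5) of the 207 peaks of 1000 bp or more. Because the files carry no score, a narrow peak near the calling threshold cannot be told apart from a site that was closed in the other library. Over all widths, 59.5% of the day 9 peaks and 49.9% of the ESC peaks had no partner. Near misses were few, since 5.34% of day 9 only and 5.72% of ESC only peaks had a peak of the other library within 500 bp.

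**Figure D1:**
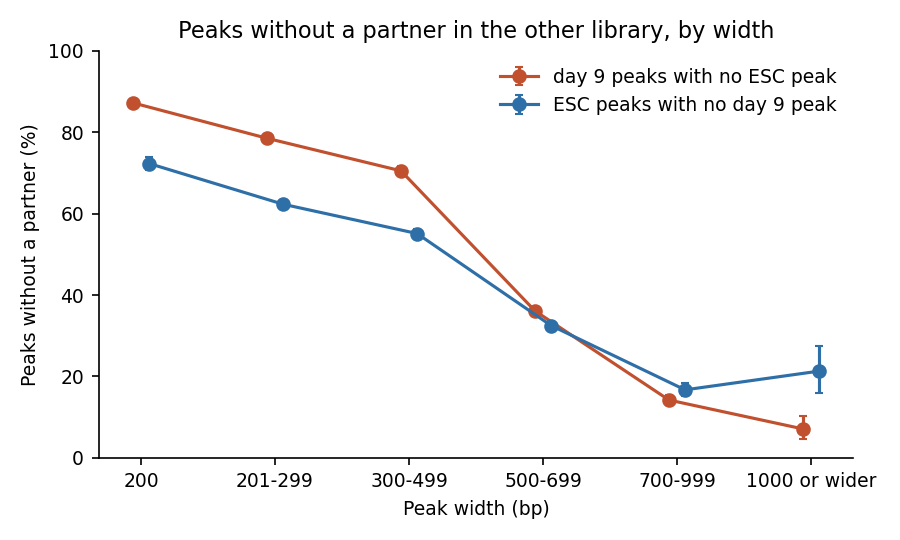
Share of day 9 peaks with no ESC peak and of ESC peaks with no day 9 peak (y axis, percent) by peak width in bp (x axis); bars are exact 95% binomial intervals. The share falls from 87.2% to 7.10% on day 9, and in ESCs from 72.3% to 16.7% before the widest bin, where it is 21.3%.

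Shared peaks were mostly promoter peaks, and both unshared classes were mostly distal. Of the day 9 shared peaks, 74.2% lay within 1000 bp of an annotated transcription start site (TSS) and 63.6% covered one. Only 20.6% (20.0 to 21.2) of the day 9 only peaks and 18.9% (18.3 to 19.6) of the ESC only peaks lay that close, close to the 21.9% of all 104248 regions of the series on chromosomes 1 to 19, X and Y. Without peaks in repeat sequence the shares were 21.2% and 27.0%, so the order of the unshared classes turned. The median distance to a TSS was 8554 bp for day 9 only and 9751 bp for ESC only peaks. Introns held the centres of 41.1% (40.4 to 41.8) of the day 9 only and 35.7% (34.8 to 36.5) of the ESC only peaks, and intergenic sequence held 35.0% and 42.0%. Exons away from a TSS held 3.34% and 3.47%. The median GC content of the central 200 bp was 63.0% in day 9 shared, 48.5% in day 9 only and 52.5% in ESC only peaks. Among distal peaks it was 47.0% in day 9 only and 51.0% in ESC only peaks.

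The earlier libraries divided the classes further. A day 0 peak was present at 51.1% (50.4 to 51.8) of the day 9 only peaks, and a day 6 peak at 74.2%. When an overlap of 50% of both peaks was asked for throughout, the day 9 only class itself grew to 23560 peaks. Of that larger class, 31.1% had a day 0 peak. The sets by history use the 1 bp rule. Another 39.7% of the day 9 only peaks had no day 0 peak and first appeared between days 1 and 6, including 15.3% with a peak on each of these 4 days, and 9.23% (8.83 to 9.65) were seen on day 9 alone. Of the ESC only peaks, 75.3% (74.6 to 76.0) had no peak in any other library, 12.4% had a day 0 peak and 2.09% had a peak in all 5 MEF-derived libraries up to day 6. These 283 sites had a peak in each library from day 0 to day 6 and in ESCs, and none on day 9. Day 9 shared peaks had a partner in all 5 earlier libraries in 75.6% of cases, and 276 of them (2.06%) appeared in no earlier library. The day 9 only peaks with a day 0 peak were closer to promoters (28.5% within 1000 bp of a TSS) than those first seen on days 1 to 6 (11.7%) or on day 9 alone (15.0%). The peaks seen on day 9 alone were also the narrowest of the 3 sets, with a median width close to the caller's smallest peak of 200 bp. The median was 290 bp in the set with a day 0 peak and 279 bp in that of days 1 to 6. Whether the peaks seen on day 9 alone were sites that opened late or calls near the threshold was not tested.

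**Figure D2:**
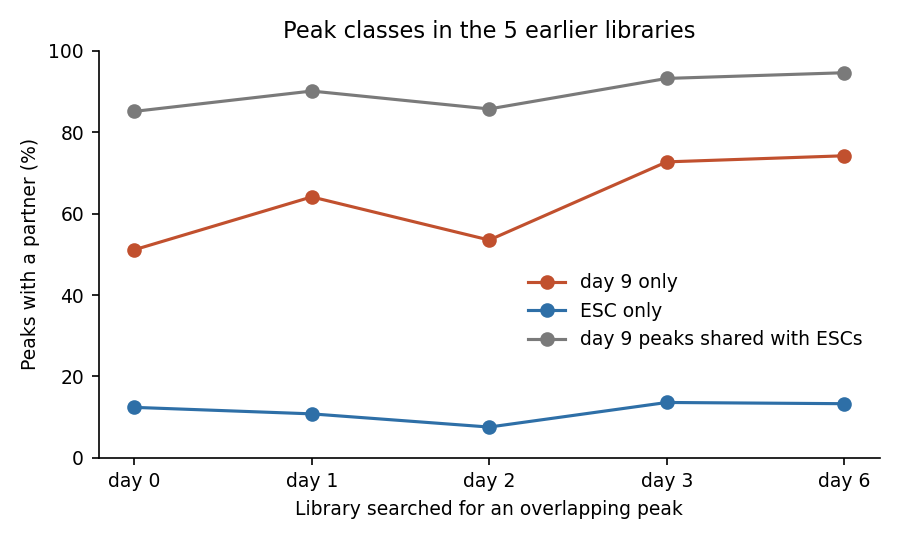
Share of day 9 only peaks, ESC only peaks and day 9 peaks shared with ESCs (y axis, percent) that overlap a peak of the library named on the x axis, each library being 1 sample. The day 9 only line runs from 51.1% on day 0 to 74.2% on day 6, with a dip to 53.5% on day 2, a library with fewer peaks (33174) than day 1 or day 3, while the ESC only line stays between 7.56% and 13.6%.

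A large part of the ESC only class lay in repeat sequence. The reference marks repeats in lower case (soft-masking), and a peak was counted as repeat sequence when more than 50% of its central 200 bp was masked. This held for 19.1% (18.7 to 19.6) of all ESC peaks and for 4.44% (4.22 to 4.67) of all day 9 peaks, and in the 5 other libraries it ranged from 4.23% on day 0 to 5.22% on day 3. The ESC peaks in repeats were almost all unshared. They made up 35.4% (34.5 to 36.2) of ESC only peaks, 41.8% of those over 1000 bp from a TSS, and 2.98% of ESC shared peaks, whereas day 9 only peaks reached 5.49% (5.18 to 5.82). With these peaks left out of both libraries, 40.3% of the ESC peaks and 59.1% of the day 9 peaks had no partner, and 65.9% of the ESC only peaks had no peak in any other library.

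Many repeat peaks of ESCs shared sequence with each other. ESC only windows were grouped by the words of 24 bases they shared in either orientation, leaving out simple repeats. The first 6 groups found, each started from the commonest word left, held 2618 of 13495 windows (19.4%, 18.7 to 20.1). The commonest word of day 9 only windows was found in 61 of 19625 (0.311%). The groups were formed on these same peaks, so their sizes describe the ESC library and are no test. The most frequent word of each group is shown because it identifies the repeat, with the octamer of group 4 in capitals:
group 1: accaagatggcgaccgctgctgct
group 2: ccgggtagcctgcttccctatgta
group 3: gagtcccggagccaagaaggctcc
group 4: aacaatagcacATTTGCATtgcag
group 5: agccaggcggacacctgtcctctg
group 6: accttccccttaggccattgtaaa
Group 1 was the largest of the 6, with 1308 ESC only windows (9.69% of the class) at a median GC content of 65.0%. Counted library by library, where a window may belong to several groups, it had 1311 windows in the ESC library and between 0 and 15 in each of the 6 MEF-derived libraries, 4 of them on day 9. Group 2 had 444 windows in ESCs and 6 on day 9, group 3 had 372 and 7, and group 5 had 216 and 2. Groups 4 and 6 were AT-richer (median GC 43.5% and 42.5%) and were less absent from the reprogramming cells. Group 4 had 230 windows in ESCs, 1 on day 0 and 21 on day 9, and group 6 had 157 in ESCs, 0 on day 0, 33 on day 1, 51 on day 3 and 31 on day 9. The names of these repeat families are not given here because no repeat annotation was used.

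Copies of the same word elsewhere in the genome give a denominator. A peak can hold several copies, so the shares below are of word copies and not of repeat elements. The word of group 1 occurs 6994 times on chromosomes 1 to 19, X and Y, and 2391 of these copies (34.2%) lay in an ESC peak, against 6 in a day 9 peak and 1 in a day 0 peak. For group 3 it was 858 of 1519 copies (56.5%) in ESC peaks and 7 in day 9 peaks. For group 4 it was 150 of 306 (49.0%) and 6. The words of groups 2 and 5 had lower shares in ESC peaks (8.05% of 7057 copies and 11.3% of 2594). Reads from near-identical copies can be placed on any of them, and how reads with several equal placements were treated is not given in the sources used here, so which copies were open cannot be read from the peaks. That the ESC library differs from each MEF-derived library in strain background was not tested as a part of this difference.

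**Figure D3:**
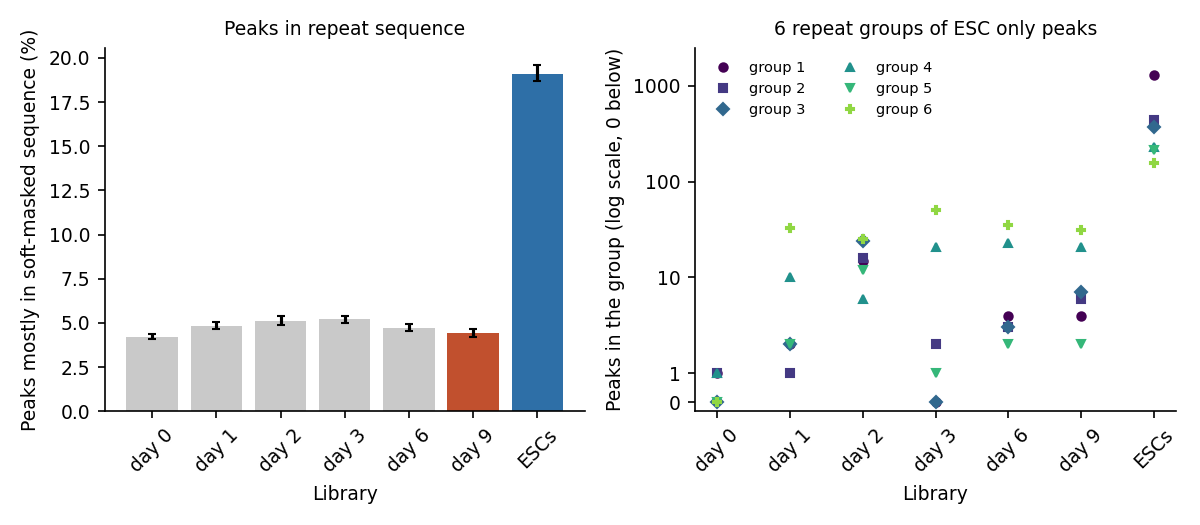
Left, share of all peaks of each library (y axis, percent) whose central 200 bp is mostly soft-masked, with exact 95% binomial intervals; right, number of peaks per library in each of the 6 groups of repeat windows (log scale, with 0 drawn below 1). The ESC library stands at 19.1%, against 4.23% to 5.22% in the others, and group 1 has 1311 peaks in ESCs and 4 on day 9.

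Between the unshared classes, AP-1 letters were more frequent in day 9 only peaks and ESRRB and composite letters in ESC only peaks. The exact letters of 16 motifs were searched on both strands of the central 200 bp, and shares are given for peaks over 1000 bp from a TSS. The AP-1 motif TGANTCA was in 14.1% (13.5 to 14.6) of 15585 day 9 only windows and in 5.75% (5.32 to 6.20) of 10943 ESC only windows, against 18.4% of all distal regions of the series. The distal shared peaks held it in 13.9% on day 9 and 12.8% in ESCs, nearer to the day 9 only than to the ESC only share. The ESRRB motif CAAGGTCA, bound by the nuclear receptor Esrrb of naive cells, went the other way, with 0.911% (0.768 to 1.07) in day 9 only and 3.83% (3.48 to 4.21) in ESC only windows and 1.47% over all distal regions. The Oct4-Sox2 composite ATTGTNATG was in 1.06% (0.904 to 1.23) and 1.70% (1.47 to 1.96), with 1.18% over all. The distal shared peaks held the composite in 1.54% on day 9 and 1.66% in ESCs, near the ESC only share. Their ESRRB shares were 1.05% and 1.28%, near the day 9 only share. The composite can overlap the octamer ATGCAAAT, whose shares were 3.25% in day 9 only and 3.36% in ESC only windows, with overlapping intervals. TEAD (CATTCCA) was in 6.14% of day 9 only and 4.56% of ESC only windows, and RUNX (AACCACA) in 5.51% and 3.47%. Over all distal regions of the series, the octamer was in 2.54%, TEAD in 5.86% and RUNX in 6.08%. The CTCF motif, of the factor that bounds chromatin loops, was in 1.48% (1.29 to 1.68) and 0.448% (0.331 to 0.592), with 1.66% over all. The CEBP motif TTGCNNCAA was in 1.52% and 1.14%, the E-box CACGTG in 2.99% and 2.55%, SRF in 1.41% and 0.813% and the NRF1 motif GCGCATGCG in 0.103% and 0.0548%, with 1.65%, 2.82%, 1.24% and 0.0651% over all.

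Without repeat windows, several of these contrasts changed. Among distal windows that were not mostly soft-masked, AP-1 stood at 14.3% (13.8 to 14.9) of day 9 only and 7.66% (7.02 to 8.34) of ESC only windows, ESRRB at 0.910% and 3.78%, and the composite at 1.04% and 1.85%, so that these directions held. The KLF motif CCACNCCC, which was level over all distal windows (11.4% and 11.0%), stood higher in ESC only windows once repeats were left out (11.1%, 10.6 to 11.6, and 14.2%, 13.3 to 15.0). TEAD became level (6.35% and 6.53%). The octamer was lower in ESC only windows (2.53%, 2.16 to 2.94, against 3.33%, 3.04 to 3.63), and its share among the ESC only windows in repeats was 4.53%. The ETS motif CCGGAAG fell from 8.69% to 2.09% of ESC only windows, and NFY (CCAATC) from 10.7% to 7.72%. Over all distal regions, KLF was in 9.20%, ETS in 1.98% and NFY in 6.48%. ETS and NFY letters are part of the repeat groups themselves. ETS was in 59.2% of the windows of group 1, NFY in 97.5% and TFAP2 (GCCNNNGGC) in 81.6% of group 2, the octamer in 76.9% of group 4 and GRHL (AACCNGTT) in 81.5% of group 5, where TFAP2 and GRHL were in 5.76% and 1.56% of all distal regions. Windows of 1 group share their sequence, so each such share rests on a repeat and not on independent sites.

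**Figure D4:**
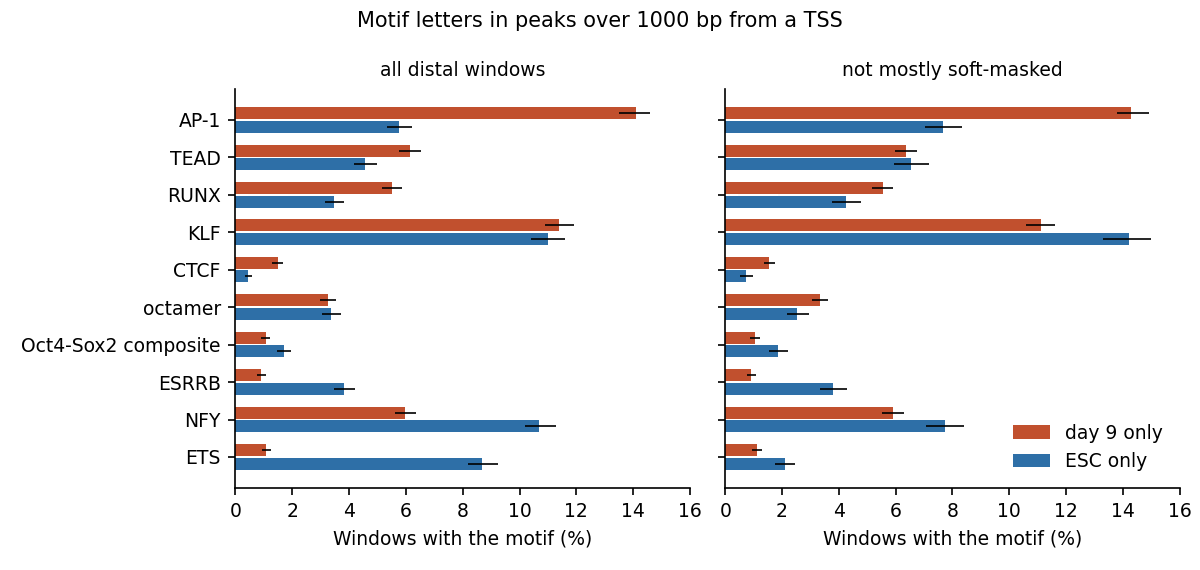
Share of distal windows (x axis, percent) that hold each motif in day 9 only and ESC only peaks, with exact 95% binomial intervals; left, all windows over 1000 bp from a TSS, right, those not mostly soft-masked. AP-1 is higher in day 9 only peaks in both panels (14.1% against 5.75%, and 14.3% against 7.66%), and ETS loses most of its difference on the right.

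Within the day 9 only class, some motif shares differed with the time at which a site was first seen. Distal peaks already present on day 0 held the AP-1 motif in 19.5% (18.6 to 20.4), those first seen on days 1 to 6 in 10.2% (9.47 to 10.9) and those seen on day 9 alone in 6.12% (4.97 to 7.43). The octamer went from 1.95% (1.65 to 2.30) in the day 0 set to 4.77% (4.27 to 5.30) in the set of days 1 to 6 and 2.47% (1.76 to 3.38) on day 9 alone. The composite did likewise, at 0.572% (0.411 to 0.775), 1.66% (1.37 to 1.99) and 0.651% (0.312 to 1.19). As the set seen on day 9 alone had a median width close to the 200 bp floor, its shares may include many calls near the threshold. They are not read here as those of late-opening sites. CTCF was in 2.43% (2.08 to 2.81) of the day 0 set and in 0.625% of the set of days 1 to 6. TEAD (6.35%, 6.06% and 5.53%) and ESRRB (0.865%, 0.944% and 0.976%) had overlapping intervals in the 3 sets. The distal day 9 shared peaks showed the like between the day 0 set and that of days 1 to 6, with AP-1 at 18.3% and 9.03%, the octamer at 1.67% and 5.70% and the composite at 0.860% and 2.29%. The share of the composite in the day 9 only peaks first seen on days 1 to 6 was thus close to that of ESC only peaks seen in no other library (1.69%, 1.43 to 1.98), whereas their ESRRB shares differed, at 0.944% (0.730 to 1.20) and 4.19% (3.78 to 4.63). Of the 830 distal ESC only windows with a day 0 peak, 16.5% (14.0 to 19.2) held AP-1.

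At the level of genes, the comparison was made at promoters and over whole loci. Of 21911 protein-coding genes in GENCODE M21, 45.8% had a peak within 1000 bp of a TSS in both libraries and 42.1% in neither. A promoter peak on day 9 and none in ESCs was found at 7.61% of the genes, and the reverse at 4.50%. Such a call sets the day 9 and ESC libraries against each other, whatever the earlier libraries held. Any annotated TSS of a gene counted, alternative starts inside the gene included. Over the gene and 10 kb on either side, 40.6% of the genes had at least 1 day 9 only peak and 30.3% at least 1 ESC only peak. The 12 gene lists are read against these values.

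**Figure D5:**
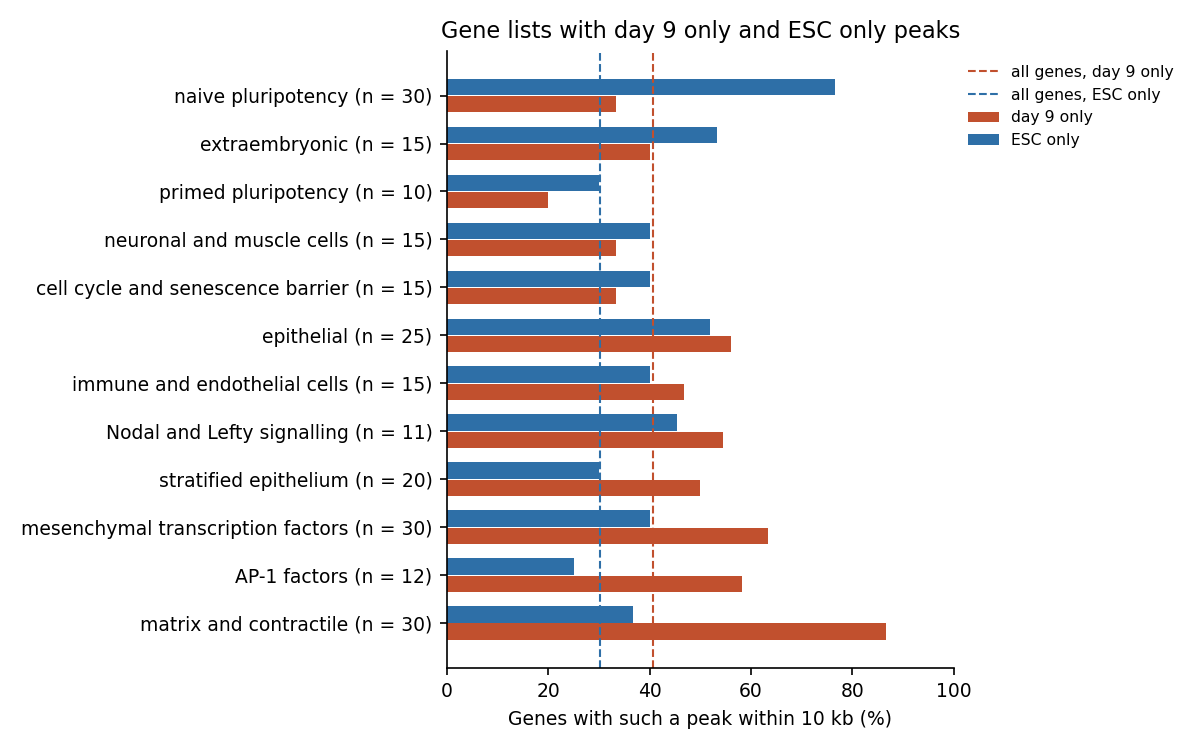
Share of the genes of each list (x axis, percent) with at least 1 day 9 only or ESC only peak in the gene or the 10 kb on either side; dashed lines mark the shares over all protein-coding genes, 40.6% and 30.3%. The naive pluripotency list reaches 76.7% for ESC only peaks, and the matrix and contractile list 86.7% for day 9 only peaks.

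Naive pluripotency genes carried ESC only peaks. Of 30 genes, 23 (76.7%) had an ESC only peak and 10 (33.3%) a day 9 only peak, and 16 had the former without the latter. These 35 distinct ESC only peaks had no partner in any other library in 28 cases, where 75.3% of all ESC only peaks had none. Of the 35, 4 lay in repeat sequence, against 35.4% of all ESC only peaks. A promoter peak in ESCs and not on day 9 was found at Esrrb, Zfp42, Dppa2, Zscan10 and Fgf4. Esrrb, an orphan nuclear receptor of naive cells, had 5 peaks in ESCs and 0 on day 9, at chr12:86395298-86395862, chr12:86466233-86466580, chr12:86471129-86471328, chr12:86501572-86502113 and chr12:86504431-86504730, and none of the 5 overlapped a peak of the MEF-derived libraries. The last lies 22 bp from an annotated TSS inside the gene, whose model starts at chr12:86361117, and holds ESRRB and KLF letters. The locus was not without peaks earlier, as day 0 had 4 other peaks there, 1 of them within 1000 bp of a TSS, and day 6 had 2. Zfp42 had a single peak, chr8:43306843-43307440, over its TSS and in ESCs alone. Dppa2 and Dppa4, neighbours of the same gene family, share the ESC only peak chr16:48303472-48304020, which covers the Dppa2 TSS. Fgf4, the main autocrine FGF of ESCs, had an ESC only peak over its TSS (chr7:144861042-144861448) and a day 9 only peak 2825 bp downstream (chr7:144864211-144864619), which was present on each of days 1 to 6.

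Other naive genes had ESC only peaks beside promoter peaks that both libraries share. At Klf2 the promoter peak was open in all 7 libraries, a peak 7782 bp upstream (chr8:72310850-72311251 on day 9) was open on day 9 and in ESCs alone, and a peak 2506 bp upstream (chr8:72316036-72316527) in ESCs alone. Tbx3 and Tdh had a shared peak over 1 start site and an ESC only peak over another (chr5:119679777-119680445 and chr14:63508610-63509195). Nr0b1, Prdm14, Sall4 and Dppa3 had 1 ESC only peak each and no day 9 peak in the locus. At Tfcp2l1, a factor of naive cells, 2 peaks downstream of the TSS were shared, 2 more were ESC only, and the TSS itself had a peak on day 9 (chr1:118627913-118628158, 246 bp) and none in ESCs. Nr5a2 and Utf1 also had a narrow promoter peak (200 and 207 bp) on day 9 and not in ESCs. Nanog had no promoter peak in either library, and its 1 peak, 4354 bp upstream, was shared by all 7 libraries. Sox2 had no peak within 10 kb in either library, and Dppa5a none within 1000 bp of its TSS. Thus 3 of the 6 ESC markers checked (Esrrb, Zfp42, Pou5f1) had a peak within 1000 bp of a TSS in the library labelled ESCs. Of these, only the Zfp42 peak lay over the start of its gene. The Esrrb peak was at a start site inside the gene, and the Pou5f1 peak 842 bp downstream of a start site. At Pou5f1 the peak over the TSS on day 9 (chr17:35506013-35506504) was also there on day 0, but not on days 1 to 6 or in ESCs, which had peaks 1768 bp upstream (chr17:35503828-35504250) and 842 bp downstream of a start site. The OKSM cassette carries Pou5f1, and its part in the day 9 peak over the TSS was not tested.

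The Nodal pathway, which maintains Lefty expression in ESCs and epiblast, was split. Of 11 genes, 6 had a day 9 only and 5 an ESC only peak. Nodal itself had a peak 846 bp upstream on day 9 (chr10:61416616-61417126), seen in no other library, and another 1601 bp upstream in ESCs (chr10:61415819-61416371), again seen in no other library, so that neighbouring sites of the same promoter region differed between the libraries. Lefty1, a Nodal inhibitor, had 3 day 9 only peaks (the nearest at chr1:180933660-180934384, open on each of days 1 to 6 as well) and 1 ESC only peak over a TSS (chr1:180936728-180936934, 207 bp). Lefty2, Skil and Foxh1 had shared peaks and no unshared ones. Gdf3 counted as a day 9 only promoter although its day 9 peak overlaps an ESC peak, since the ESC peak ends 1279 bp from the TSS. Among 10 primed pluripotency genes, 2 had a day 9 only and 3 an ESC only peak, under or near the background. The de novo methyltransferase Dnmt3b had 2 day 9 only peaks, 1 over a TSS and open from day 0 on (chr2:153649241-153649962), and no ESC peak. Otx2, Zic2 and Zic5 had ESC only peaks, of which 1 lay 286 bp upstream of the Zic2 TSS (chr14:122474815-122475149).

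Matrix and contractile genes had the highest share of day 9 only peaks among the 12 lists. Of 30 matrix and contractile genes, 26 (86.7%) had a day 9 only peak, against 40.6% of all genes, and 11 (36.7%) an ESC only peak, with 64 day 9 only peaks in all. Of these 64 peaks, 42 had a day 0 partner and 31 were present in all 5 earlier libraries. Over all day 9 only peaks, these shares were 51.1% and 25.9%. A promoter peak on day 9 and not in ESCs was found at 10 of the 30 genes (7.61% of all genes), namely Col1a1, Col1a2, Col5a2, Lox, Sparc, Acta2, Tagln, Thy1, S100a4 and Tgfbi. The reverse was found at 0 of the 30, near the 4.50% of all genes. Col1a2, a chain of type I collagen, had its 1 peak over the TSS (chr6:4505352-4505820) in all 6 MEF-derived libraries. Acta2, smooth muscle actin, had a 798 bp peak over the TSS (chr19:34255042-34255839) and another 9934 bp upstream that holds AP-1 and SRF letters, and both were in all 6 MEF-derived libraries and not in ESCs. Tagln and Tgfbi had 3 and 4 day 9 only peaks and no ESC peak. Thy1, silenced early in cells that go on to reprogram, had 3 day 9 only peaks and no ESC peak. Col1a1 had 3 day 9 only peaks, 2 of which (chr11:94936861-94937436 and chr11:94952102-94952706) were absent on day 0 and present on each later day. The OKSM cassette was inserted in the Col1a1 locus, and its part in these peaks was not tested. Postn had no peak in either library, and Col3a1 and Prrx1 had no promoter peak on day 9.

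Mesenchymal transcription factors leaned the same way with more overlap. Of 30 genes, 19 (63.3%) had a day 9 only and 12 an ESC only peak, and 69 day 9 only peaks stood beside 28 ESC only peaks. The promoters of 17 were open in both libraries, including Twist1, Snai1, Snai2, Runx1, Runx2 and Cebpb. A promoter peak on day 9 and not in ESCs was found at 5 of the 30 genes (7.61% of all genes), namely Zeb1, Zeb2, Foxc1, Meox2 and Nfix. The reverse was found at 0 of 30, near the 4.50% of all genes. Zeb1 and Zeb2 are repressors of Cdh1, and their promoter peaks were narrow (213 and 232 bp). Of the nuclear factor I genes, Nfix had 9 day 9 only and 2 ESC only peaks, and Nfib had 12 day 9 only, 6 ESC only and 2 shared day 9 peaks, so that most sites of this locus were open in 1 of the libraries. Of the 12 AP-1 factor genes, 9 had promoter peaks in both libraries and 7 (58.3%) a day 9 only peak, while 3 had an ESC only peak. Fos, Fosb, Fosl2, Jun and Jund had shared peaks alone, whereas Junb, Atf3, Maff and Mafk had day 9 only peaks beside shared promoters. Batf3 was the 1 AP-1 gene with a promoter peak on day 9 and not in ESCs.

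Epithelial genes showed both states. Of 25 genes, 14 (56.0%) had a day 9 only and 13 (52.0%) an ESC only peak. A promoter peak in ESCs and not on day 9 was found at Cdh1, Ocln, Cldn7, Esrp2 and Spint1, and the reverse at Krt19, Esrp1, Crb3, Grhl2 and St14. The day 9 peak of Crb3 overlaps an ESC peak that starts 1223 bp from the TSS, so that gene has no day 9 only peak. None of the first 5 promoters had a peak in any MEF-derived library. Cdh1 (E-cadherin), the gene most used to follow the mesenchymal-to-epithelial transition, had a 502 bp peak over its TSS in ESCs alone (chr8:106603080-106603581). Day 9 had 2 peaks of its own at Cdh1, 3243 bp upstream (chr8:106599513-106600108) and 27445 bp downstream (chr8:106631588-106632162), each present on days 1, 2, 3 and 6 and absent on day 0, and a peak in ESCs alone lies just beyond the second (chr8:106632482-106633067). Grhl2, an activator of Cdh1, had a peak on day 9 (chr15:37317726-37318214), open since day 1, with 3 other peaks in ESCs alone. That day 9 peak lies 189 bp upstream of a TSS inside the gene, whose model starts at chr15:37233036. Epcam had no peak in either library, and Krt8 and Krt18 had no promoter peak in either.

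Of 20 genes of stratified epithelium, 10 (50.0%) had a day 9 only and 6 (30.0%) an ESC only peak, with 1 promoter, of Ehf, open on day 9 and not in ESCs. Of 15 extraembryonic genes, 6 and 8 (53.3%, against 30.3% of all genes) did, with promoter peaks on day 9 and not in ESCs at Eomes, Gata4 and Tfap2c and the reverse at Sox17 and Tfap2a. Eomes and Tfap2a also had promoter peaks on days 0, 1, 3 and 6. Sox17, an endoderm factor, had 2 peaks within 1000 bp of its TSS in ESCs and none in the 6 other libraries. Of 15 genes of the cell cycle and senescence barrier, 5 (33.3%) and 6 did, and 11 promoters were open in both libraries. Ccnd2 and Mycn had promoter peaks on day 9 and not in ESCs. That of Mycn was on day 9 (chr12:12942332-12942850) and in all earlier libraries but not in ESCs, which had a peak 1428 bp upstream. Of 15 immune and endothelial genes, 7 (46.7%) had a day 9 only and 6 an ESC only peak, and of 15 neuronal and muscle genes, 5 (33.3%) and 6 did. Promoter peaks on day 9 and not in ESCs were found at Csf1r, Tek, Vwf and Snap25 and the reverse at Cd68 and Olig2. Tek and Snap25 had promoter peaks in every MEF-derived library, and Cd68 on days 0, 1, 3 and 6. Ptprc and Des had no peak in either library, and the Csf1r promoter peak was in all 6 MEF-derived libraries.

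Outside the lists, the genes with the largest excess of 1 class were long genes. On the day 9 side the leading loci were Fgfr2 and Gm20388, whose models span 2960900 and 4434882 bp and so cover many other genes, and 2010111I01Rik (19 day 9 only and 2 ESC only peaks), Dnm3 (17 and 3), Camta1 (15 and 1), Nav2 (16 and 3), Maml2 (13 and 0), Syn3 (16 and 4), Rad51b (16 and 4) and Itpr2 (12 and 0). On the ESC side they were 3 overlapping models on chromosome 18 (Gm37013, Gm37388 and Gm42416), which count the same 13 ESC only peaks, and Rims2 and Tmem117 (8 and 0 each), Dpp6 (11 and 4), Enox1 (10 and 3), Abcc4 (10 and 3), Mtus2 (8 and 1) and Rbpms (8 and 1). Runs of peaks were more frequent on the day 9 side, which also had more unshared peaks (19639 against 13521). Peaks of a class with gaps of up to 12.5 kb were joined into runs, and 43 runs of at least 5 day 9 only peaks were found and 2 of ESC only peaks. Runs were not counted at equal peak numbers, so these counts do not compare clustering between the classes. The longest runs were 7 peaks within Cubn (chr2:13385492-13422488, where ESCs had 0 peaks and day 0 had 6) and 7 around Actb. The ESC runs lay within Grik3 (chr4:125598607-125610081, 5 peaks and 0 in each other library) and at Gabbr1. The widest day 9 only peaks, of 1187 to 1353 bp, lay at Itpr3 or nearest to Fbxw11, Shroom3, B4galt3 and B4galnt4, and were open in 4 or 5 of the earlier libraries. The widest ESC only peaks were wider, at 1483 to 2310 bp, and 3 of these 5 were over 50000 bp from the nearest protein-coding TSS (those nearest to H2afb1, Glt1d1 and Slitrk2).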

How the data were processed

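ATAC-seq peaks of 7 mouse libraries were used, 1 per group, and the day 9 and ESC libraries were compared. Reads were cut to 50 bp by the authors (Trimmomatic) and aligned to mm10 (Bowtie2), followed by Samtools fixmate; they then removed duplicates with Picard, downsampled the samples to a common depth (its value is not given in the sources used here) and called peaks per library with MACS2 (no model, extension of 200, shift of 100, q-value cut-off of 0.05). The deposited files give peak positions alone, in bp, with no score, signal or count, so the reads behind a peak are unknown.

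Peaks were classed by an overlap of 1 bp or more. Distances were taken from a peak's edge to the nearest TSS of GENCODE M21. Motif letters were searched in the central 200 bp, with the RefSeq GRCm38.p6 sequence, on chromosomes 1 to 19, X and Y. Repeat windows were those with more than 50% soft-masked bases. For the groups by shared words, all ESC only windows were used, soft-masked or not, and were grouped greedily. The word of 24 bases found in most windows was taken, words present in at least 20% of its windows were added, and windows with at least 3 of these words were assigned. For 27 repeated symbols the longest gene model was kept. Overlaps and motif searches were tested on simulated data with known answers (24 checks, 0 failed), and 4 overlap counts were equal to those of BEDTools 2.31.1. Sequences were read with pysam 0.24.0, arrays handled with numpy 2.4.6, intervals computed with scipy 1.17.1 and plots drawn with matplotlib 3.10.9. No p-value was computed, since each group has 1 library. Shares carry exact (Clopper-Pearson) 95% intervals for counting error only, and peaks of 1 library are not replicates.

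The comparison, the motifs and the gene lists were chosen with earlier results of these data known. The genes named were those of the lists with a promoter peak in 1 of the 2 libraries, the 10 genes per class with the largest excess of its peaks within 10 kb, and those at the 5 widest peaks per class. Up to 3 sequences per class were printed, by number of motif matches and then width. All other genes and peaks named, and the repeat groups, were chosen after their values were seen. ChIP-seq, RNA-seq and reporter data of the study were not analysed here.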

Additional observations from a re-analysis of the deposited data

How the results depend on the processing

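The share of day 9 peaks without an ESC peak (59.5%) was 54.9% with peaks of at least 300 bp, 71.4% with an overlap of 50% of both peaks, 56.3% when a peak within 500 bp counted and 53.6% with the widest day 9 peaks in the number of the ESC peaks. The share of ESC peaks without a day 9 peak (49.9%) was 47.2%, 65.1%, 47.1% and 52.3% in the same order, and 40.3% without peaks in repeats, an alternative chosen after seeing the data. The promoter share of day 9 only peaks (20.6%) was 17.0% within 500 bp, 37.8% within 5 kb, 16.7% for protein-coding genes, 29.2% with peaks of at least 300 bp and 21.2% without repeats. That of ESC only peaks (18.9%) was 15.4%, 35.3%, 14.9%, 20.9% and 27.0%, so that the order of the classes turned without repeats, and that of day 9 shared peaks (74.2%) was 72.4%, 81.2%, 70.8%, 82.6% and 76.3%.

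AP-1 in all day 9 only windows (12.5%) was 17.7% over whole peaks, 14.1% in distal peaks, 15.2% at 40 to 50% GC and 15.6% in peaks of at least 300 bp. In ESC only windows (5.50%) it was 8.81% over whole peaks, 8.27% at that GC content and 6.87% without repeats. The composite in day 9 only windows (0.948%) was 1.42% over whole peaks, 1.25% at 40 to 50% GC and 1.11% in wide peaks. In ESC only windows (1.44%) it was 2.06%, 2.43% and 1.86%, and 1.70% in distal peaks. KLF in day 9 only windows (11.4%) was 17.0%, 9.87% and 14.2%. In ESC only windows (11.8%) it was 17.4%, 10.2% and 13.8%, and 11.0% in distal peaks and 14.6% without repeats, so its order between the classes depended on the setting. AP-1 was higher in day 9 only and the composite higher in ESC only windows under each of these settings. The share of day 9 only peaks with a day 0 peak (51.1%) was 31.1% with an overlap of 50% of both peaks, a rule that also enlarged the day 9 only class. That of ESC only peaks seen in no other library (75.3%) was 77.4% with wide peaks and 65.9% without repeats. Gene counts of the lists rose most with 50 kb on each side, where 66.5% of all genes had a day 9 only and 57.1% an ESC only site within reach. No paired analysis was possible because each group has 1 library. Causes of these shifts were not tested.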

Other observations

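The chromosomes held unequal shares of the classes. Chromosome 14 had 5.99% of the ESC only peaks (809), against 3.64% of the day 9 only peaks (715) and 4.06% of the day 9 shared peaks, and it was the only autosome where ESC only peaks outnumbered day 9 only peaks. Without peaks in repeats the ESC only peaks no longer outnumbered the day 9 only peaks there (534 against 682), and the shares were 6.12% and 3.68%. Chromosome 8 had 5.76% of the ESC only and 4.84% of the day 9 only peaks, and chromosome 11 had 5.51% and 7.03%. Without peaks in repeats these were 6.10% and 4.80% on chromosome 8 and 6.59% and 7.10% on chromosome 11. The X chromosome had 3.35% of the ESC only peaks and 2.19% of the day 9 only peaks, but 1.69% and 2.16% without peaks in repeats, and 12.1% of the windows of repeat group 1 lay on it. Of the copies of that group's leading word in the genome, 10.8% lie on the X chromosome. These are counts of peaks in 1 library each, and copy number of the chromosomes in the ESC line was not measured here.

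Motif pairs gave a small contrast. In distal ESC only windows with the AP-1 motif, 4.29% (27 windows) also held the Oct4-Sox2 composite, against 1.54% of those without it. In distal day 9 only windows the values were 1.32% (29 windows) and 1.02%. The shared classes had the same direction, with 2.51% (12 windows) and 1.39% in day 9 shared and 2.50% (11 windows) and 1.54% in ESC shared windows. The pairs were not counted without repeat windows. The composite and ESRRB motifs were together in 7 distal ESC only windows and in 1 day 9 only window.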
